A study of Mus musculus with 12 samples.

Results

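Macrophages that carry LYVE-1 on their surface were compared between the mouse aorta and mouse fat, with 3 RNA-sequencing libraries from each tissue. They make up 6 of the 12 libraries of the series, and were taken by the tissue and sort in the labels, with every gene in the count table. Both groups came from adult mice of strain C57/BL6, labelled wild type and given no treatment in the labels. The aorta LYVE1+ group was sorted from the aortas of 30 mice, and the fat LYVE1+ group from epididymal and subcutaneous fat of 20 mice. The other 6 libraries hold the LYVE1- macrophages of the same tissues and are used here to ask whether a tissue difference also appears outside the LYVE1+ sort. All cells passed one gate (viable, CD45+, CD64+, MerTK+, CD11b+, F4/80+), so both groups are macrophages by sort, and a gene behind the gate is no finding between them. Separate pools of animals are not stated for the 3 libraries, so p-values measure the spread between libraries, which may be technical.

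LYVE-1 is a receptor for hyaluronan, a sugar polymer of the extracellular matrix, and was first known from lymphatic vessels. Many organs hold a resident macrophage population with LYVE-1 on its surface, which lies along blood vessels, takes up debris and macromolecules, and is rich in scavenger and lectin receptors such as CD163 and the mannose receptor. In the aorta these cells sit in the adventitia, among fibroblasts, elastic fibres and smooth muscle. In fat they lie among adipocytes, where macrophages handle released lipid and respond to type 2 cytokines.

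The aorta LYVE1+ libraries had 19998417, 12792058 and 14129711 counts and the fat LYVE1+ libraries 5049936, 12033475 and 10308556, in the order 1, 2, 3 that is used for every value below. Levels are CPM, counts scaled to the size of the library and by edgeR's TMM factors. Lyve1 itself had 2744, 2044 and 2807 CPM in the aorta and 1497, 2193 and 2095 CPM in fat, and did not pass the test (log2 fold change 0.39, SE 0.32, adjusted p = 0.624, edgeR). Cd163, the hemoglobin scavenger receptor of resident macrophages, was at 3379, 2778 and 3034 and 2253, 3242 and 3288 CPM. Ptprc (CD45), Fcgr1 (CD64), Mertk, Itgam (CD11b) and Adgre1 (F4/80) were not called either. Fat library 1 stood apart: it was the shallowest, mitochondrial genes took 8.85% of its counts against 1.79% to 2.82% in the other 5 LYVE1+ libraries, and erythroid markers summed to 25972 CPM there against 1.88 to 1401 CPM in the other 5. Markers of T and NK cells came to 355 CPM, against 30.4 to 104 CPM, and the sums of dendritic cell (760 CPM), B cell (1568 CPM) and eosinophil markers (101 CPM) were highest there too. Fat LYVE1- library 1 stood apart in the same way, with 12.1% mitochondrial counts against 2.06% to 3.20% in the other 5 LYVE1- libraries and an erythroid sum of 5279 CPM against 16.8 to 349 CPM. Library identifiers carry 2 prefixes, whose meaning the labels do not give: aorta LYVE1+ library 3 has RHH and the other 5 LYVE1+ libraries RMM. The prefix differs within a group only in aorta LYVE1+. A fit with the prefix therefore sets library 3 apart, much as leaving it out does.

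Of 14216 genes tested, 426 differed between aorta and fat LYVE1+ macrophages (3.00% of genes; edgeR, adjusted p below 0.05), and 300 of them by more than 2-fold. They divide into 267 genes higher in the aorta (1.88%) and 159 lower (1.12%). Counts of called members in every list below stand beside these shares. Of all genes tested, 48.6% had positive values, and 2172 had an unadjusted p below 0.05. The 3 aortic and 3 fat libraries did not overlap for 20.6% of all genes. The leading genes higher in the aorta encode parts of the vessel wall matrix (Mfap4, Mgp, Col14a1, Eln, Bgn), secreted signals (Ifnb1, Ccl4, Ccl3, Cxcl10), a heat shock protein (Hspa1b), a water channel (Aqp1) and surface receptors (Cx3cr1, Lilra5). Leading in the other direction were the monocyte receptor Ccr2, the chemokine Cxcl12, the type 2 product Retnla, the transcription factor Egr2, the kinase Pdk4 and genes known from adipocytes (Car3, Fabp4). The count fell to 172 to 246 without any of the other 5 LYVE1+ libraries and was 443 without fat library 1. With only the 6 LYVE1+ libraries fitted it was 243, and with the prefix in the model 181.

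**Figure D1:**
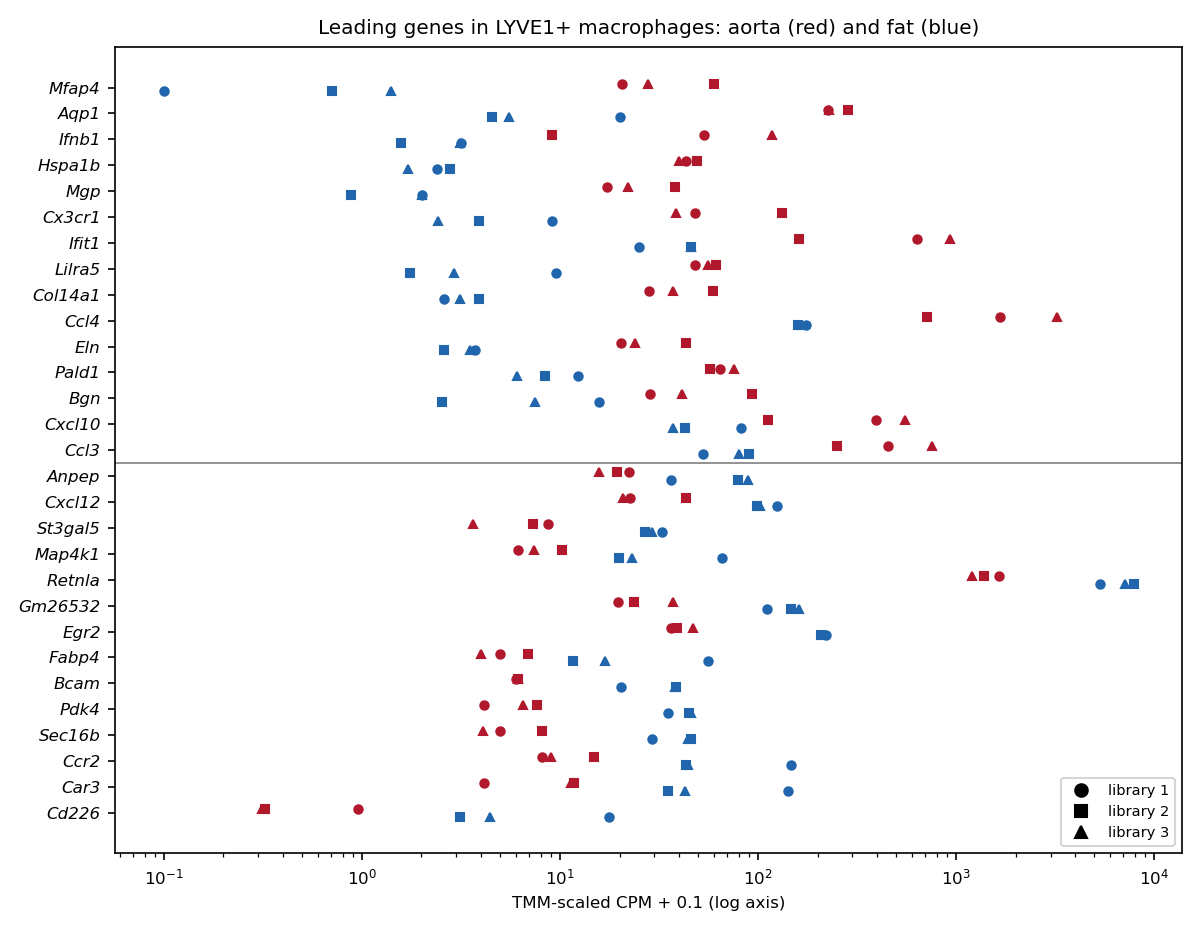
Each point is the level of a gene in 1 LYVE1+ library, as TMM-scaled CPM plus 0.1 on a log axis, red for aorta and blue for fat, with the library number as the marker shape. The 15 genes above the line were called higher in the aorta and the 14 below it lower, all without overlap between the tissues, and the spread among red points is wide for Ifnb1, Ifit1 and Ccl4.

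Aqp1 (ENSMUSG00000004655.5, chromosome 6, 55336432 to 55348555), a water channel best known from kidney, red cells and endothelium, had 226, 285 and 228 CPM in the aorta and 20, 4.42 and 5.44 CPM in fat. The 3 aortic libraries lay close together and far above fat, with fat library 1 the highest of its group. The difference was 26.6-fold (log2 4.73, SE 0.52, adjusted p = 0.000766), and log2 5.64 without fat library 1. Cx3cr1, the fractalkine receptor of monocyte-derived and some resident macrophages, had 47.7, 132 and 38.4 CPM in the aorta and 9.02, 3.81 and 2.32 CPM in fat. It was 15.5-fold higher in the aorta (adjusted p = 0.00257), with a log2 fold change of 3.96 that was 3.20 without aorta library 2 and 4.55 without fat library 1. Lilra5, an activating receptor of the leukocyte immunoglobulin-like family, had 48, 61.2 and 56.1 CPM against 9.41, 1.65 and 2.82 CPM (log2 3.74, SE 0.43, adjusted p = 0.00114), and 4.63 without fat library 1. Pald1, a phosphatase-domain protein described in endothelium, was 7.57-fold higher, with 64.4, 57.3 and 75.3 against 12.3, 8.32 and 5.95 CPM. In bulk RNA, more cells with a transcript and more transcript per cell cannot be told apart. The counts carry no stated strand setting, so Cx3cr1, Mfap4, Eln, Cxcl10, Cxcl16, Cdc20, Tk1 and other genes that overlap an antisense gene may include reads of that neighbour.

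Several matrix genes of the vessel wall were higher in the aorta. Of 28 matrix protein genes tested, 8 were called higher (28.6%, beside 1.88% of all genes) and none lower, with a median log2 fold change of 0.95, beside -0.015 for all genes tested. Mfap4 (ENSMUSG00000042436.11, chromosome 11, 61485431 to 61488900), a glycoprotein of elastic microfibrils, had 20.6, 60.1 and 27.9 CPM in the aorta and 0, 0.607 and 1.31 CPM in fat. Its log2 fold change was 5.62 (SE 0.56, adjusted p = 0.000347). Eln, the elastin of elastic fibres, was at 20.2, 43.1 and 23.8 against 3.65, 2.51 and 3.43 CPM, 9.19-fold higher (adjusted p = 0.0011). Col1a1, a chain of type I collagen, was the most abundant of the 8, at 306, 962 and 448 against 134, 124 and 132 CPM (log2 2.14, SE 0.38, adjusted p = 0.00906). In each of these genes aorta library 2 was the highest of the 6.

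The remaining 5 were Mgp, the matrix Gla protein that restrains calcification, Col14a1, a collagen of fibril surfaces, Col1a2, the small proteoglycan Bgn and Col6a2. Col14a1 was 13-fold higher, with 28.2, 59 and 37.4 against 2.5, 3.81 and 3.02 CPM. Mgp had 17.1, 38 and 22.1 against 1.92, 0.78 and 1.92 CPM (log2 4.11, adjusted p = 0.0087), and its call ended without fat library 2 (adjusted p = 0.0508). Col1a2 was 3.75-fold higher, with a call that ended without aorta library 2 (adjusted p = 0.0628), fat library 2 (0.092) or fat library 3 (0.0736). Bgn was called with all libraries (log2 2.75, adjusted p = 0.0392) and not without aorta library 2 (adjusted p = 0.14), aorta library 3 (0.0759), fat library 2 (0.112) or fat library 3 (0.131); its log2 fold change was 2.11 without aorta library 2 and 3.48 without fat library 1. Col6a2 (log2 2.03, adjusted p = 0.0475) was not called in 5 of the 6 fits that left out 1 library (adjusted p from 0.0734 to 0.181). Without aorta library 2 the list held 5 called genes and its median was 0.34.

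Markers of fibroblasts, smooth muscle and lymphatic endothelium were also higher in some or all aortic libraries. The 10 fibroblast markers summed to 1246, 3496 and 1551 CPM in the aorta and 1276, 734 and 824 CPM in fat, so aorta library 2 was the highest here too and fat library 1 lay above aorta library 1. Of these markers 3 were called higher (Col1a1, Col1a2 and Serpinf1), and the matrix list holds some of the same genes. Smooth muscle markers summed to 63.3, 84.1 and 105 CPM against 27.9, 23.4 and 43.5 CPM, with 2 of 10 called higher. Mylk, the myosin light chain kinase of smooth muscle, had 27.1, 30.5 and 33.2 against 12.1, 7.97 and 9.78 CPM (log2 1.62, adjusted p = 0.00713). Cnn1, the smooth muscle calponin, had no counts in fat and was at least 14.8-fold higher, taking 3 counts over the group as the floor, with a call that ended in every fit without 1 LYVE1+ library (adjusted p from 0.0573 to 0.119). Lymphatic endothelial markers, from cells that carry LYVE-1 as well, summed to 18.1, 59.9 and 19.1 CPM against 16.4, 3.99 and 3.1 CPM, with aorta library 2 again the highest and no overlap. All 5 tested had positive values, with a median of 2.03, and none was called by edgeR (3 at an unadjusted p below 0.05, and 1 called by DESeq2). Markers of endothelium in general summed to 11.2, 57.1 and 24.6 against 62.4, 10.1 and 14.9 CPM, with overlap and no call by edgeR of 10 tested (1 at an unadjusted p below 0.05, and 0 called by DESeq2). The part of these cells in the matrix transcripts, and in Aqp1 and Pald1, was not tested.

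**Figure D2:**
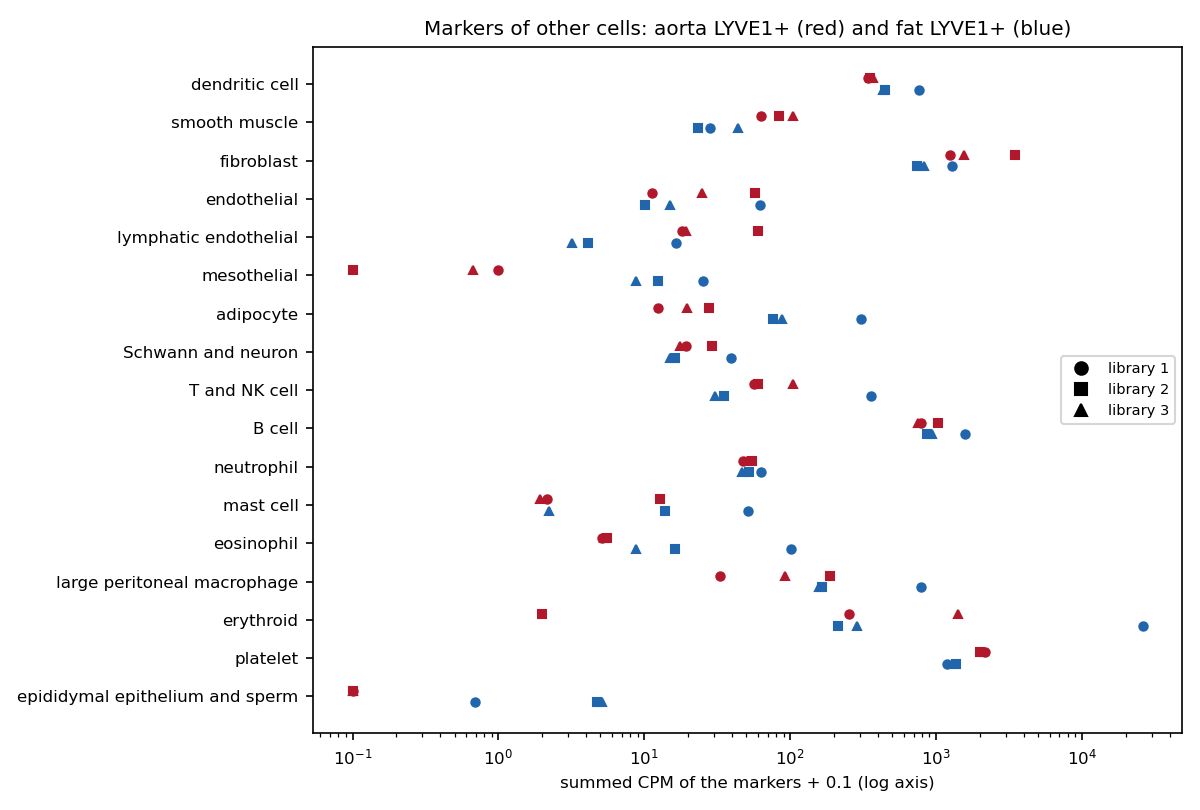
Summed CPM plus 0.1, on a log axis, of the marker genes of other cell types in each LYVE1+ library, red for aorta and blue for fat, with the library number as the marker shape. Adipocyte and mesothelial sums are higher in all 3 fat libraries, the smooth muscle sum in all 3 aortic libraries, and fat library 1 has the highest erythroid sum, 25972 CPM.

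Many genes of DNA replication and mitosis were higher in aorta than in fat LYVE1+ macrophages. Of 28 cell cycle genes tested, 14 were called higher (50%, beside 1.88% of all genes) and none lower, with a median log2 fold change of 1.03. The list's sum was 1159, 1034 and 1106 CPM in the aorta and 688, 643 and 633 CPM in fat, with no overlap. Mki67, the proliferation antigen Ki-67, had 73.5, 60.4 and 81.5 CPM in the aorta and 29.9, 23.7 and 17.8 CPM in fat, 3.04-fold higher (log2 1.60, SE 0.21, adjusted p = 0.00202). Cdc20, which activates the ubiquitin ligase that ends metaphase, had 26.3, 17.3 and 20.7 against 5.76, 5.81 and 7.86 CPM (3.3-fold, adjusted p = 0.0022). The promoters of these 2 mitotic genes are shown as examples, chosen with earlier results known. They are 2 of the 4 called members whose promoter holds both motifs marked below. Each line gives the 250 bases before the RefSeq start (GRCm38.p6, 5′ to 3′ on the gene's strand), with capitals for CCAAT boxes (CCAAT) and cell cycle homology regions (TTTGAA) on either strand. Mki67 lies on the minus strand at chr7:135716380-135716629 and Cdc20 on the minus strand at chr4:118437344-118437593.
Mki67: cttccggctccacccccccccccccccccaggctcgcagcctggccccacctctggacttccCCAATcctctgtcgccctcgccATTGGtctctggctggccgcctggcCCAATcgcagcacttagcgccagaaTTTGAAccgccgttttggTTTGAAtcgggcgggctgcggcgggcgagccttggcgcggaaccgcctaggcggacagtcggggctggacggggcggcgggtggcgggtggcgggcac
Cdc20: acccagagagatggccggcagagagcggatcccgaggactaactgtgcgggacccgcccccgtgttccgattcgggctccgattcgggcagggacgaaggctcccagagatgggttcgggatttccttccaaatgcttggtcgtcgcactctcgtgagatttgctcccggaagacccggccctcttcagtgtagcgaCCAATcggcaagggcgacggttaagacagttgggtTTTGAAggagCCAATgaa
RefSeq promoters were found for 12 of the 14 called cell cycle genes. A CCAAT box, whose 5 letters are common, occurred in 10 of the 12 (83.3%), beside 37.5% of 27025 genes with a promoter in the table. It was in 46.7% of all genes called higher in the aorta and 32.8% of those called lower. TTTGAA occurred in 4 of the 12 (33.3%), which were Mki67, Cdc20, Top2a and Cdk1, beside 18.3% of all. For genes called higher and lower the TTTGAA shares were 17.8% and 13.6%. The pair of motifs does not overlap in the windows shown, and a match is only a run of letters. Promoters of the 14 cell cycle genes not called were not counted. Whether these shares go with the call or with the whole list was therefore not tested.

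Both replication and mitotic genes were among the 14. Top2a, the topoisomerase that untangles replicated DNA, was at 80.8, 58.9 and 72.6 against 27.4, 31.4 and 23.6 CPM (log2 1.36, adjusted p = 0.00229). Tk1, the thymidine kinase of S phase, was at 18.7, 24.7 and 18.6 against 7.68, 6.93 and 6.75 CPM (log2 1.54, adjusted p = 0.00229), and Mcm5, a subunit of the replicative helicase, at 55.3, 61.6 and 55 against 23.6, 23.5 and 33 CPM (log2 1.10, adjusted p = 0.00553). Stmn1, a microtubule destabiliser, Birc5, the survivin of the chromosomal passenger complex, and Aurka, a kinase of the spindle poles, rose by log2 1.59, 1.45 and 1.64. All of these genes held their call without any single LYVE1+ library. Hmmr, a spindle protein that also binds hyaluronan and was listed with the hyaluronan genes, had 12.6, 10.4 and 9.53 against 1.92, 2.6 and 2.22 CPM (4.77-fold, adjusted p = 0.0042). Plk1, Ccna2, Cenpf, Rrm2, Mcm3 and Cdk1 were called with all libraries, at log2 1.82, 1.48, 2.00, 1.03, 0.58 and 1.02. Their calls ended in 1, 3, 4, 4, 6 and 6 of the 6 fits without 1 LYVE1+ library, with adjusted p up to 0.0711, 0.0913, 0.092, 0.101, 0.0989 and 0.139. The list kept 9 to 14 called members in those fits.

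Among the 4 groups of the series, fat LYVE1+ had the lowest cell cycle sums. In the LYVE1- libraries the same list summed to 1183, 991 and 1015 CPM in the aorta and 1141, 1440.2 and 1487 CPM in fat. Mki67 had 91.5, 66.4 and 69.2 CPM in aorta LYVE1- and 79.1, 84.8 and 101 CPM in fat LYVE1- libraries, all above the 17.8 to 29.9 CPM of fat LYVE1+. In the LYVE1- comparison none of the 28 genes was called higher in the aorta and 1 was lower, with a median of -0.40. The difference between the sorts was tested as an interaction in the same fit. It called 22 genes (0.155%), 21 of them with a positive value, a log2 fold change further toward the aorta in LYVE1+ than in LYVE1- cells. Of the 22, 21 were also called in the LYVE1+ comparison and 3 in the LYVE1- comparison. On the cell cycle list are 10 of the 22. For Mki67 the interaction was log2 1.82 (SE 0.28, adjusted p = 0.0234), and for Cdc20 2.30 (SE 0.31, adjusted p = 0.0206). Leaving out fat LYVE1+ library 1 gave 47 interaction calls, and leaving out aorta LYVE1+ library 2 gave 16. Without fat LYVE1+ library 3 there were 5 calls. The number was 0 without aorta LYVE1+ library 1 or 3 or fat LYVE1+ library 2. Those fits had 722, 848 and 846 genes at an unadjusted p below 0.05 in edgeR, beside 862 with all libraries. A share of 0.05 of the genes tested is expected below that p with no difference at all.

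**Figure D3:**
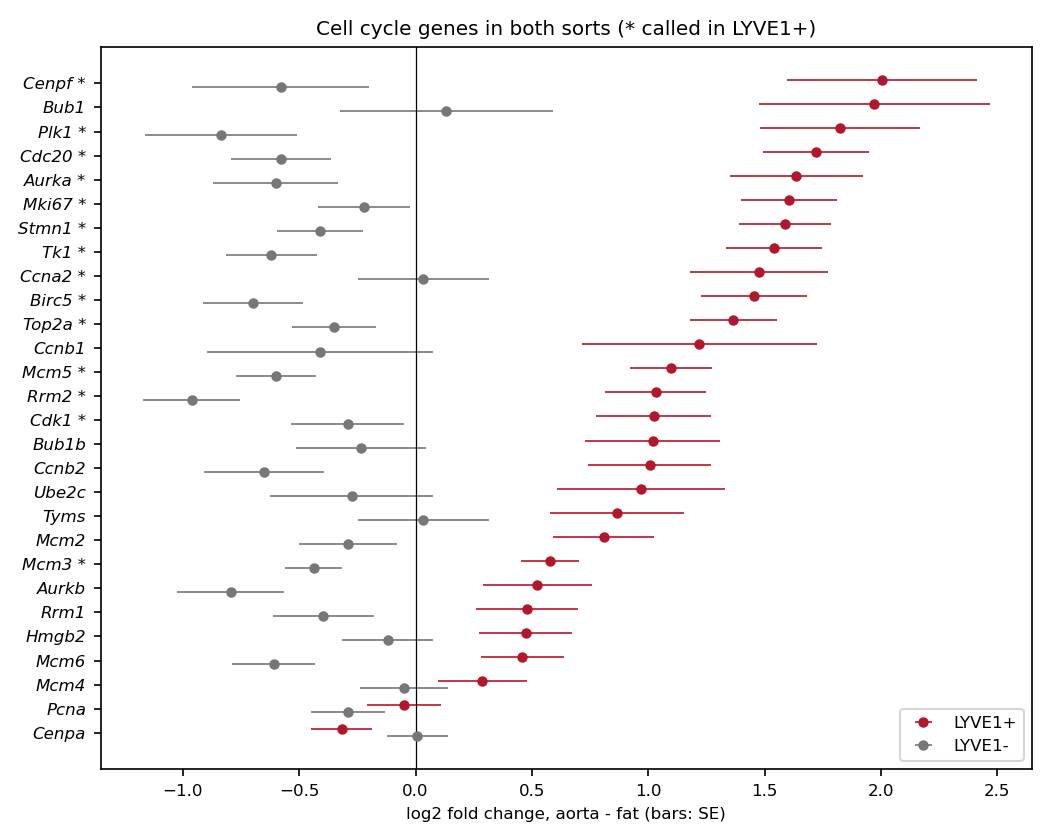
Log2 fold change of aorta against fat for each of the 28 cell cycle genes, in LYVE1+ macrophages (red) and LYVE1- macrophages (grey), with bars of 1 SE; an asterisk marks the 14 genes called in LYVE1+ cells. In LYVE1+ cells 26 of the 28 values are above 0.

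A few heat shock genes were higher in the aorta, led by the HSP70 pair. Of 18 heat shock and chaperone genes 4 were called higher (22.2%, beside 1.88% of all genes) and none lower, and the list's median was 0.22. Hspa1b (ENSMUSG00000090877.3, chromosome 17, 34956436 to 34959238), an inducible HSP70, had 43.2, 48.9 and 39.8 CPM in the aorta and 2.3, 2.69 and 1.61 CPM in fat, with tight groups. It was 19.9-fold higher (log2 4.31, SE 0.25, adjusted p = 3.81e-06), the smallest adjusted p among the genes named here. Its neighbour and near copy Hspa1a had 1401, 1863 and 1301 against 129, 358 and 383 CPM (log2 2.39, SE 0.45, adjusted p = 0.0132). Reads shared by the 2 copies may have been split or dropped in counting, so the values of each are uncertain. Hspb1, a small heat shock protein, was at 19.7, 17.2 and 24.6 against 6.33, 5.03 and 3.02 CPM (4.33-fold, adjusted p = 0.0027). Hsp90aa1, the inducible HSP90, was 1.45-fold higher, a call that was lost in 5 of the 6 fits without 1 library (adjusted p from 0.0635 to 0.159).

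The promoters of the HSP70 pair are shown because they show how alike the copies are and hold the same heat shock element. Both lie on the minus strand of chromosome 17 in GRCm38.p6 (RefSeq), at chr17:34959239-34959488 for Hspa1b and chr17:34972157-34972406 for Hspa1a, and capitals mark GAANNTTC, which reads the same on both strands.
Hspa1b: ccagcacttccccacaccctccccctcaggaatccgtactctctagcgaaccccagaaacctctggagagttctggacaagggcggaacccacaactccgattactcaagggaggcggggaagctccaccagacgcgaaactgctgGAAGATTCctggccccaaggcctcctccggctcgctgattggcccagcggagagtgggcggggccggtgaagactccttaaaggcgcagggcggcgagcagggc
Hspa1a: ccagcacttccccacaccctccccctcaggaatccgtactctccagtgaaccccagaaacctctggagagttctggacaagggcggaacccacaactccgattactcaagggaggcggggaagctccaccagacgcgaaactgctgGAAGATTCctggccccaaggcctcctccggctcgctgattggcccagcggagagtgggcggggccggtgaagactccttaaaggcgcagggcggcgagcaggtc
The 2 windows are identical at 247 of 250 positions, and each holds the element once, from 104 to 97 bases before the start. It was found in each of the 3 called heat shock genes with a promoter in the table (Hspa1a, Hspa1b and Hspb1), beside 7.73% of all genes there. The element was in 8.63% of all genes called higher in the aorta. As the HSP70 pair are near copies, the 3 are not separate cases. Promoters of the heat shock genes not called were not counted. Whether the element goes with the call or with the whole list was not tested.

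Several secreted signals of innate activation were higher in the aorta, with wide spread among the aortic libraries. Ccl4 and Ccl3, chemokines that attract leukocytes, had 1664, 713 and 3216 and 452, 249 and 758 CPM in the aorta against 176, 158 and 161 and 52.8, 90 and 80.4 CPM in fat. Aorta library 3 was the highest and library 2 the lowest for both, yet all 3 lay above every fat library. The log2 fold changes were 3.50 (SE 0.46, adjusted p = 0.0022) and 2.70 (SE 0.36, adjusted p = 0.0022), and that of Ccl4 was 2.85 without aorta library 3. Of 15 CC chemokines, 3 were called higher (20%, beside 1.88% of all genes) and 2 lower (13.3%, beside 1.12%). Ccl12, a ligand of CCR2, was the third (log2 1.42, adjusted p = 0.0425), and its call ended without each LYVE1+ library in turn (adjusted p from 0.0597 to 0.172). The 2 lower ones, Ccl6 (log2 -0.95) and the eosinophil attractant Ccl11 (log2 -2.80), each lost the call in 5 of those 6 fits (adjusted p up to 0.171 and 0.16).

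Cxcl16, a membrane chemokine that also takes up oxidised lipoprotein, differed with little spread. It had 255, 249 and 305 CPM in the aorta and 85.4, 78.9 and 83.9 CPM in fat (3.26-fold, SE 0.16 on the log2 scale, adjusted p = 0.000228). Cxcl10, the interferon-induced ligand of CXCR3, had 395, 113 and 554 against 82, 42.8 and 37.1 CPM. It was 6.6-fold higher (adjusted p = 0.0192), and the call ended without aorta library 1 (adjusted p = 0.0549), aorta library 3 (0.074), fat library 2 (0.0857) or fat library 3 (0.083). Cxcl12, which retains cells through CXCR4, went the other way, with 22.5, 43.3 and 20.6 against 125, 99.3 and 102 CPM (log2 -1.92, SE 0.33, adjusted p = 0.00831). Among 11 chemokine receptors Ccrl2, an atypical receptor that binds chemerin, was higher, at 535, 346 and 601 against 208, 179 and 179 CPM (log2 1.39, adjusted p = 0.00257).

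Of 19 inflammatory mediators 3 were called higher (15.8%, beside 1.88% of all genes). Positive values were found for 17 of the 19, beside 48.6% of all genes tested, with a median of 0.53. Osm, oncostatin M of the IL-6 family, had 152, 177 and 223 CPM in the aorta and 54.9, 65.3 and 63.9 CPM in fat, 3-fold higher (SE 0.17 on the log2 scale, adjusted p = 0.000612). Tnf had 508, 267 and 1199 against 168, 77 and 87.3 CPM, with aorta library 3 far above the other 2. Its log2 fold change of 2.58 (SE 0.52, adjusted p = 0.0209) was 1.82 without that library, and the call ended without aorta library 3 (adjusted p = 0.0755), fat library 2 (0.0887) or fat library 3 (0.0855). Ptgs2, the inducible cyclooxygenase, was called (log2 2.01, adjusted p = 0.0486) but not in 5 of the 6 fits without 1 library (adjusted p up to 0.182). Without aorta library 3 the list had 1 called gene and a median of -0.04.

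Interferon beta and 2 of its target genes were higher, while most interferon stimulated genes were not called. Ifnb1, interferon beta, had 53.4, 9.02 and 117 CPM in the aorta and 3.07, 1.47 and 3.02 CPM in fat, with aorta library 2 near the fat range. Its log2 fold change was 4.61 (SE 0.87, adjusted p = 0.0135), it was 3.68 without aorta library 3, and the call ended without fat library 2 (adjusted p = 0.0745) or fat library 3 (0.0604). Ifit1, an RNA sensor induced by interferon, had 633, 162 and 933 CPM against 25, 45.9 and 45.6 CPM (log2 3.88, SE 0.57, adjusted p = 0.00346). Oasl1, of the oligoadenylate synthetase family, was at 419, 149 and 905 against 106, 119 and 109 CPM; its log2 fold change of 2.14 was 1.36 without aorta library 3, and the call (adjusted p = 0.0425) ended without any 1 of 5 LYVE1+ libraries (adjusted p up to 0.181). Oas3, of the same family, was lower at 20.9, 20.1 and 24.2 against 30.7, 67.9 and 83.8 CPM (log2 -1.49, adjusted p = 0.0425), and that call also ended in 5 of the 6 fits (adjusted p up to 0.169). Of 31 interferon stimulated genes 2 were called higher (6.45%, beside 1.88% of all genes) and 1 lower (3.23%, beside 1.12%). The median was 0.048.

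The promoters of Ifit1 and Cxcl10 are shown as the interferon-induced members with the highest aortic levels among the leading genes. Ifit1 lies on the plus strand at chr19:34640639-34640888 and Cxcl10 on the minus strand at chr5:92348890-92349139 (RefSeq, GRCm38.p6). Capitals mark the interferon response pattern GAAANNGAA on either strand.
Ifit1: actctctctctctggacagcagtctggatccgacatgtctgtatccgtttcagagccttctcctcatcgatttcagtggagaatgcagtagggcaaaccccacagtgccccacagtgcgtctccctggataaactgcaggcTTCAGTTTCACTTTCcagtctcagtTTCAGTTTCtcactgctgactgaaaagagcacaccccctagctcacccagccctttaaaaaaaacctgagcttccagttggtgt
Cxcl10: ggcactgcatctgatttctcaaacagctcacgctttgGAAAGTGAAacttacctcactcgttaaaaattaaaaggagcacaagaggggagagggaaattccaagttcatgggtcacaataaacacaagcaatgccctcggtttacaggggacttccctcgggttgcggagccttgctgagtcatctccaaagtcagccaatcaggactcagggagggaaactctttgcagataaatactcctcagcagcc
Ifit1 holds 3 matches, the first pair of which overlap, and Cxcl10 holds 1 from 213 to 205 bases before its start. The pattern was in 8.18% of all genes with a promoter in the table, in 9.14% of those called higher in the aorta and in 12.8% of those called lower.

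Among genes of TGF-beta and BMP signalling 3 of 20 were called higher (15%, beside 1.88% of all genes) and none lower. The list's median was 0.39. Id2, an inhibitor of basic helix-loop-helix factors, had 304, 295 and 291 CPM in the aorta and 103, 57.4 and 54.7 CPM in fat (4.16-fold, SE 0.24 on the log2 scale, adjusted p = 0.00117). Skil, a SMAD corepressor induced by TGF-beta, was 3.48-fold higher (adjusted p = 0.0173), with a call that ended without aorta library 3 (adjusted p = 0.0639), fat library 2 (0.0755) or fat library 3 (0.0659). Tgfbr1, the type I receptor, was 2.17-fold higher (adjusted p = 0.0338) and was not called without aorta library 1 (adjusted p = 0.0953), aorta library 2 (0.109), fat library 2 (0.0927) or fat library 3 (0.131). Without fat library 1 the list held 6 called genes.

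Of 34 macrophage transcription factors 4 were higher (11.8%, beside 1.88% of all genes) and none lower. Besides Id2 they were Bhlhe41, a clock-linked repressor, at 27.3, 36.5 and 40 against 10.6, 6.67 and 10.2 CPM (log2 1.93, SE 0.24, adjusted p = 0.00178), Spic and Tfec. Spic, the factor of heme-recycling macrophages, had 47.6, 41.2 and 40.7 against 23, 20.5 and 15.2 CPM (2.21-fold, adjusted p = 0.0081). Tfec, of the MiT family, was 1.74-fold higher, and its call ended without aorta library 1 (adjusted p = 0.0687), aorta library 3 (0.111), fat library 2 (0.0866) or fat library 3 (0.0924). Hmox1, the heme oxygenase that degrades heme, had 2384, 1959.6 and 3463 against 1044, 1442 and 1289.7 CPM and was 2.07-fold higher (adjusted p = 0.0306). That call ended in 5 of the 6 fits without 1 library (adjusted p up to 0.132). Among 19 iron and heme genes Spic and Hmox1 were the 2 called (10.5% higher, beside 1.88% of all genes).

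Several surface receptors were higher in the aorta. Of 8 Siglecs, receptors for sialic acid, Siglece, Cd33 and Siglech were higher in the aorta (37.5%, beside 1.88% of all genes). None was lower. Siglech had 145, 151 and 147 CPM against 66, 69.7 and 62.3 CPM (log2 1.16, SE 0.20, adjusted p = 0.00831). Cd33 had 462, 451 and 445 against 188, 252 and 244 CPM (log2 0.99, adjusted p = 0.00757) and Siglece 72.8, 84.3 and 64.1 against 29.4, 30.8 and 23.9 CPM (log2 1.40, adjusted p = 0.00424). These 3 calls held in every fit without 1 LYVE1+ library, although the median of all 8 members was -0.31, and 0.58 without fat library 1. Siglech is also a marker of plasmacytoid dendritic cells and microglia. Fcrls, an Fc receptor-like molecule of resident macrophages, had 1247, 1167 and 1224 against 582, 683 and 653 CPM (log2 0.92, SE 0.14, adjusted p = 0.00379), the 1 gene called of 8 in its list.

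Itgb5, an integrin chain that takes part in uptake of dying cells, had 43.7, 28.2 and 50.7 CPM in the aorta and 4.99, 4.51 and 9.58 CPM in fat (6.36-fold, SE 0.37 on the log2 scale, adjusted p = 0.00232). Mfge8, the bridge between that integrin and phosphatidylserine, was 2.76-fold higher (adjusted p = 0.0102), a call that ended without fat library 2 (adjusted p = 0.0572). Elmo1, an engulfment adaptor, was 1.72-fold higher (adjusted p = 0.0108), and not called without fat library 2 (adjusted p = 0.0598) or fat library 3 (0.0548). These were 3 of 20 genes of efferocytosis, the uptake of dying cells (15%, beside 1.88% of all genes). Cd276, a checkpoint ligand of the B7 family, was at 14.2, 24.7 and 11.5 against 2.69, 2.25 and 1.41 CPM (log2 3.01, SE 0.41, adjusted p = 0.00229). Plau, the urokinase that activates plasmin, had 50.9, 54.3 and 87.7 against 18.4, 23.9 and 23.9 CPM (log2 1.53, adjusted p = 0.00406), the 1 gene called of 26 matrix proteases and inhibitors. Pdgfa, a growth factor for smooth muscle cells and fibroblasts, had 11, 11.5 and 12.5 against 2.5, 3.12 and 4.54 CPM (log2 1.76, adjusted p = 0.00849). Hk2, the inducible hexokinase that starts glycolysis, was 4.05-fold higher, with 144, 133 and 147 against 46.4, 29.7 and 29.1 CPM (adjusted p = 0.00287).

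The following called list members each lost the call in at least 1 of the 6 fits without 1 LYVE1+ library. The scavenger and signalling receptor Lrp1 was 1.7-fold higher (adjusted p = 0.0132) but not without aorta library 2 (adjusted p = 0.0557), aorta library 3 (0.0522), fat library 2 (0.0614) or fat library 3 (0.0705). Tlr2, a receptor for bacterial lipopeptides, was 1.97-fold higher (adjusted p = 0.0102), with 0.0517 without aorta library 3. Its adaptor Myd88 was 1.54-fold lower, a call that ended in 5 of 6 such fits (adjusted p up to 0.112). Gpr183, a receptor for oxysterols, was 2.46-fold higher and Ch25h, the enzyme that makes its ligand's precursor, 7.2-fold. Their calls ended without fat library 2 (adjusted p = 0.0598) or fat library 3 (0.051) and without aorta library 3 (adjusted p = 0.169), fat library 1 (0.0837), fat library 2 (0.136) or fat library 3 (0.0806), respectively, and without aorta library 3 the log2 fold change of Ch25h fell from 2.85 to 1.78. The nucleotide receptors P2ry2 and P2ry13 rose by log2 2.43 and 1.70, with adjusted p up to 0.0977 and 0.0979 in such fits. Gdf15, Pfkfb3, Atp6v1a, Gpr137b and Rdh5 were also called higher (log2 1.05, 0.79, 0.63, 0.63 and 1.73), and each lost its call in 3 to 6 of the 6 fits, with adjusted p up to 0.134, 0.116, 0.14, 0.119 and 0.108. Itga1, an integrin for collagen, had no counts in fat and was at least 11.5-fold higher, but its call ended in all 6 (adjusted p up to 0.116).

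Retnla, Egr2 and Egr1 were higher in fat LYVE1+ macrophages. Retnla (ENSMUSG00000061100.3, chromosome 16, 48842551 to 48844461), the secreted product RELM-alpha of macrophages exposed to IL-4, had 1650.4, 1390.5 and 1206 CPM in the aorta and 5302, 7870.1 and 7166 CPM in fat. It was 4.79-fold lower in the aorta (log2 -2.26, SE 0.20, adjusted p = 0.000172). Its promoter is shown as that of the most abundant gene among the leaders lower in the aorta, on the plus strand at chr16:48842359-48842608 (RefSeq, GRCm38.p6). Capitals mark the STAT6 type palindrome TTCNNNNGAA, which reads the same on both strands.
Retnla: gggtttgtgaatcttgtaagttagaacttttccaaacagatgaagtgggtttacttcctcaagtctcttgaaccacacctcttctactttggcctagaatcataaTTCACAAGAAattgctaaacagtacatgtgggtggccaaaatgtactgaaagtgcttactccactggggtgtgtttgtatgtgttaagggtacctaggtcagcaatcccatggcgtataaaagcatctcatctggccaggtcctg
The palindrome lies 145 to 136 bases before the start, and 6.76% of all genes with a promoter in the table hold one, as do 8.80% of those called lower and 5.58% of those called higher in the aorta. Egr2, an early response factor of macrophage activation, had 36.2, 39.1 and 47 CPM against 221, 209 and 211 CPM, the groups tight and far apart (5.23-fold lower, SE 0.16 on the log2 scale, adjusted p = 1.21e-05). These were the 2 genes called of 19 alternative activation genes (10.5%, beside 1.12% of all genes called lower), whose median was -0.79. Both calls held without any single LYVE1+ library. Egr1, a related immediate early factor, was 2.98-fold lower at 942, 1093 and 819 against 1735, 3339.8 and 3440.3 CPM (adjusted p = 0.0235), a call that was lost in 5 of the 6 fits (adjusted p from 0.0568 to 0.106). Of 25 immediate early genes Egr2 and Egr1 were the 2 called (8% lower, beside 1.12% of all genes), and the list's median was -0.14.

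A few genes of lipid handling and fuel choice were lower in the aorta. Pdk4, a kinase that inhibits pyruvate dehydrogenase (PDH), had 4.06, 7.59 and 6.4 CPM in the aorta and 35.1, 45 and 45.9 CPM in fat. It was 7.01-fold lower in the aorta (SE 0.39 on the log2 scale, adjusted p = 0.00255, edgeR). Pdk1 was also called (log2 -1.22, adjusted p = 0.0425), but not in 5 of the 6 fits without 1 library (adjusted p up to 0.158). They were the 2 called of 17 genes of fatty acid oxidation and PDH kinases (11.8% lower, beside 1.12% of all genes). Of 29 lipid handling genes 3 were lower (10.3%, beside 1.12% of all genes) and none higher, with a median of -0.28. Lpl, the lipoprotein lipase, had 70.8, 115 and 62.5 against 232, 247 and 242 CPM (log2 -1.54, adjusted p = 0.0217), and Abcg1, a cholesterol exporter, 31.7, 51.7 and 26.1 against 76.8, 105 and 125 CPM (log2 -1.49, adjusted p = 0.0116). The calls of Lpl ended without aorta library 1 (adjusted p = 0.0923), aorta library 3 (0.0977), fat library 2 (0.0677) or fat library 3 (0.0672), and those of Abcg1 without aorta library 1 (adjusted p = 0.0664), aorta library 3 (0.061) or fat library 3 (0.0593). Fabp4, a fatty acid carrier of adipocytes and macrophages, had 4.86, 6.84 and 3.91 against 56, 11.6 and 16.7 CPM. Its log2 fold change of -2.41 (adjusted p = 0.04) was -1.45 without fat library 1, and the call ended in 5 of the 6 fits (adjusted p up to 0.152).

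Adipocyte transcripts moved with these genes. The 12 adipocyte markers summed to 12.3, 27.8 and 19.4 CPM in the aorta and 306, 76 and 87.7 CPM in fat, with 5 of 11 tested markers called lower. Cfd, the adipsin of adipocytes and a complement protease, had 0.802, 1.13 and 1.14 against 35.1, 11.1 and 14.5 CPM (log2 -4.29, SE 0.58, adjusted p = 0.00229; -3.65 without fat library 1). Cidec, a lipid droplet protein, had 0.451, 0.0752 and 0.0711 against 23.8, 6.07 and 4.03 CPM (adjusted p = 0.00424). Car3, a carbonic anhydrase abundant in fat cells, had 4.06, 11.7 and 11.2 against 142, 35 and 42.8 CPM (log2 -3.02, adjusted p = 0.0157); its value was -2.13 without fat library 1 and its call ended without aorta library 1 (adjusted p = 0.0677) or aorta library 3 (0.054). Retn, the adipocyte hormone resistin, had no counts in the aorta and was at least 26.8-fold lower, with a call that ended in every fit without 1 LYVE1+ library (adjusted p up to 0.102). Adiponectin (Adipoq) and leptin (Lep), hormones that define fat cells, were not called, at 8.71, 2.16 and 3.78 CPM and 8.12, 0.42 and 0 CPM in fat on the plain library size. Mesothelial markers, from the lining of the fat depot, summed to 0.9, 0 and 0.566 CPM against 25.1, 12.2 and 8.63 CPM, and none of the 4 tested was called by edgeR (4 at an unadjusted p below 0.05, and 3 called by DESeq2). Msln, the mesothelin that defines these cells, had no counts in the aorta LYVE1+ libraries. The part of adipocyte RNA in the lipid genes was not tested.

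Monocyte genes were called in both directions. Ccr2, the receptor that draws monocytes from the marrow, had 8.02, 14.8 and 8.96 CPM in the aorta and 147, 43.4 and 44.1 CPM in fat. The log2 fold change was -2.88 (SE 0.47, adjusted p = 0.00574) and -2.06 without fat library 1, whose value was the highest. Plac8, abundant in circulating monocytes, had 1.5, 1.58 and 4.84 against 23, 27.3 and 22.5 CPM (log2 -3.21, SE 0.52, adjusted p = 0.00588; -3.97 without aorta library 3). With Cx3cr1 in the opposite direction, 1 of 16 monocyte genes was higher (6.25%, beside 1.88% of all genes). Lower were 2 (12.5%, beside 1.12%), and 12 of the 16 had negative values. The list's median was -0.74 with all libraries and 0.30 without fat library 1.

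Members of the DC-SIGN family of lectins were lower in the aorta. Cd209a had 146, 137 and 120.0 CPM in the aorta and 216, 309 and 319 CPM in fat (2.09-fold lower, SE 0.17 on the log2 scale, adjusted p = 0.00524). Cd209d was at 136, 128 and 105 against 339.5, 404 and 415 CPM (log2 -1.65, adjusted p = 0.00934; 0.0566 without aorta library 3). Cd209b was at 207, 261 and 157 against 521, 561 and 591 CPM (log2 -1.42, adjusted p = 0.0245), and its call ended without aorta library 1 (adjusted p = 0.0923), aorta library 3 (0.111), fat library 2 (0.0745) or fat library 3 (0.0827). These paralogs share sequence, so reads between them may be misassigned. Clec4b1, another C-type lectin, was lower as well, at 12.1, 14.8 and 10.2 against 32.8, 32.6 and 31.6 CPM (log2 -1.39, SE 0.15, adjusted p = 0.000774). Clec5a, an activating lectin of myeloid cells, was higher, at 120.2, 121 and 86.4 against 30.7, 47.6 and 46.7 CPM (log2 1.38, adjusted p = 0.0102). Of 26 C-type lectins 1 was thus higher (3.85%, beside 1.88% of all genes) and 4 were lower (15.4%, beside 1.12%).

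The other leading genes lower in the aorta have varied roles. Sec16b, of export from the endoplasmic reticulum, had 4.86, 8.04 and 3.98 against 29.2, 45.7 and 44.3 CPM (log2 -2.83, adjusted p = 0.00444). St3gal5, the synthase of the ganglioside GM3, had 8.58, 7.22 and 3.56 against 32.8, 26.9 and 28.9 CPM, and Bcam, a laminin receptor, 5.92, 6.01 and 6.05 against 20.2, 38.3 and 38 CPM (log2 -2.18 and -2.43). Anpep, the surface aminopeptidase CD13, had 22.2, 19.2 and 15.6 against 36.3, 79.4 and 88.6 CPM (log2 -1.84, adjusted p = 0.00624), and the non-coding gene Gm26532 19.6, 23.7 and 37 against 111, 146 and 160.4 CPM (log2 -2.38). The calls of these 5 genes held without any single LYVE1+ library. Cd226, an activating receptor of T and NK cells that some macrophages carry, had 0.853, 0.225 and 0.213 against 17.7, 3.03 and 4.33 CPM, highest in fat library 1. Its log2 fold change of -4.06 was -2.95 without that library, and the call ended without aorta library 2 (adjusted p = 0.0883), aorta library 3 (0.102) or fat library 1 (0.0505). Map4k1, a kinase of lymphoid and myeloid cells, had a log2 fold change of -2.19 that was -1.46 without fat library 1, and its call ended without aorta library 1 (adjusted p = 0.0706) or aorta library 3 (0.0656). Aldh1a3, which makes retinoic acid, was near 0 in the aorta (0.0501, 0.225 and 0.0711 CPM) and at 2.5, 4.51 and 1.71 CPM in fat, and its call was lost in 5 of the 6 fits (adjusted p up to 0.128).

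Genes that mark the resident LYVE1+ population were mostly not called. Of 28 such genes the 3 Cd209 members were lower (10.7%, beside 1.12% of all genes) and none was higher. The list's median was -0.03. Class II antigen presentation had negative values for all 11 genes, none called by edgeR (7 at an unadjusted p below 0.05, and 1 called by DESeq2), with a median of -1.51. That median was 0.0031 without fat library 1. Cd74, the class II invariant chain, had 1173, 1683 and 1748 CPM in the aorta and 5524, 1944 and 2107 CPM in fat, and the sum of the list was 13218 CPM in fat library 1 against 2120 to 3427 CPM in the other 5. MHC class I presentation, glucocorticoid response, S100 proteins and sex chromosome transcripts had no gene called by edgeR of 11, 16, 7 and 8 tested, with 0, 1, 1 and 0 genes at an unadjusted p below 0.05 and 0, 0, 1 and 0 called by DESeq2. H2-D1 and B2m, the most abundant class I genes, had log2 fold changes of -0.046 and 0.10. Dusp1, a phosphatase induced by glucocorticoids, was at -0.33, with fat library 1 below and the other 2 fat libraries above the aorta. Ddx3y and Ddx3x, a Y-linked and an X-linked helicase, were at 0.015 and 0.032. S100a10 and S100a6 were at 0.15 and 0.28.

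**Figure D4:**
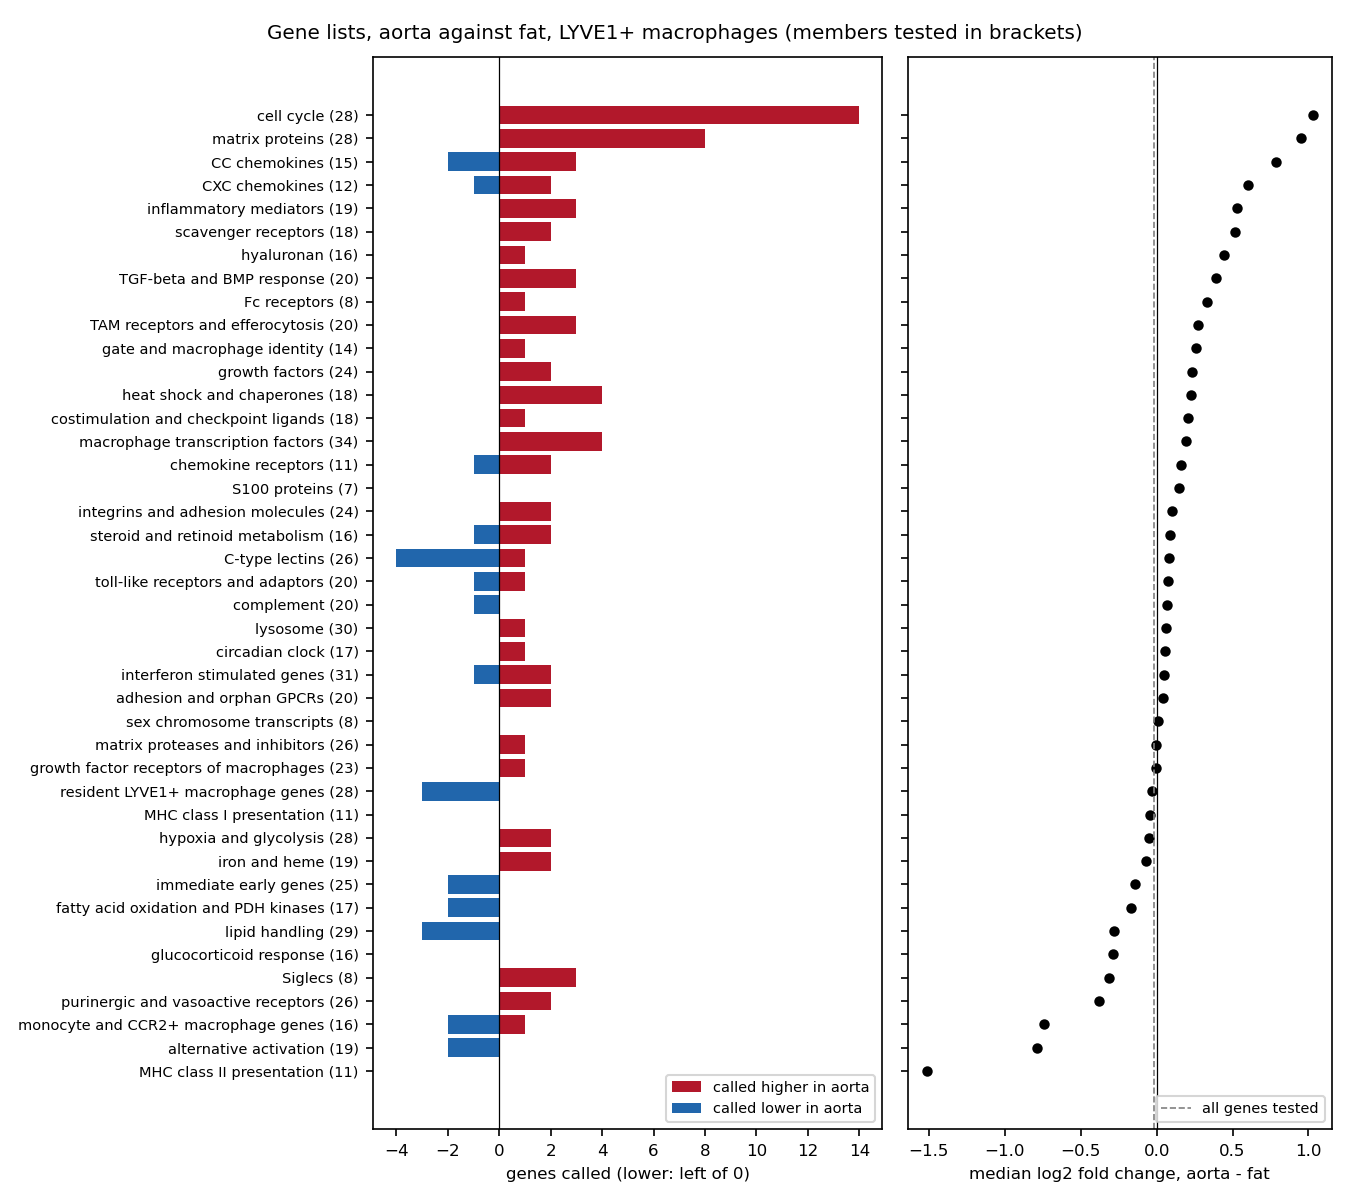
Left, the number of genes called higher (red, right of 0) and lower (blue, left of 0) in the aorta for each gene list, with the number tested in brackets; right, the median log2 fold change of each list, with a dashed line for all genes tested. Cell cycle and matrix protein lists have the most called genes, and the class II median of -1.51 comes with no call.

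The same tissues also differed in LYVE1- macrophages. The labels number the libraries alike in both sorts of a tissue, so a LYVE1+ and a LYVE1- library may come from 1 preparation, and the sorts are not independent samples of a tissue. Fat library 1 stands apart in both sorts, with adipocyte sums of 306 and 319 CPM. There 353 genes were called (2.48%), 236 higher in the aorta (1.66%) and 117 lower (0.823%). In that sort every aortic library has the prefix RHH and every fat library RMM, so tissue and prefix cannot be told apart. Genes called in both sorts numbered 157, which is 36.9% of the LYVE1+ calls and 44.5% of the LYVE1- calls, and 156 of them had the same sign. Of the 426 genes called in LYVE1+ cells, 362 (85.0%) had the same sign in LYVE1- cells, beside 64.9% of all genes. This share was 211 of 267 for the genes higher in the aorta and 151 of 159 for the genes lower. The median size of the 426 log2 fold changes was 1.42 in LYVE1+ cells and 0.78 in the same direction in LYVE1- cells. These sizes and shared signs follow a choice by the call in LYVE1+ cells, in sorts that may share preparations, and are given as a description.

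**Figure D5:**
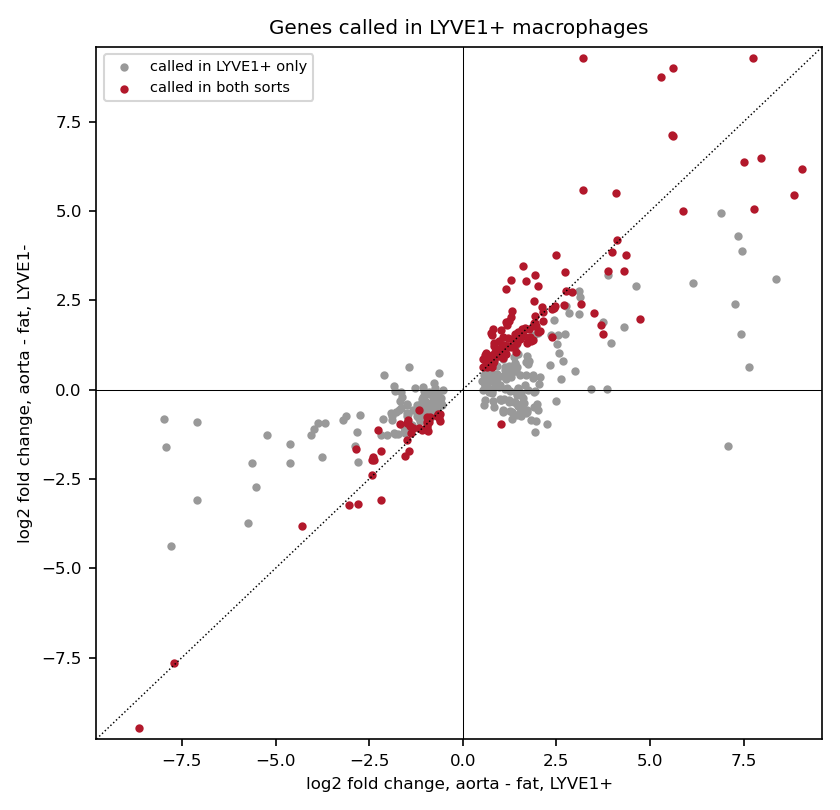
Each point is 1 of the 426 genes called in LYVE1+ macrophages, with its log2 fold change of aorta against fat there (x axis) and in LYVE1- macrophages (y axis); red points were called in both sorts, and the dotted line marks equal values. Most points lie in the upper right and lower left quadrants, and points beyond about 7 on either axis have a group with few or no counts, so their size is not a measure.

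Mfap4, Hspa1b, Egr2 and Pdk4 were called in the same direction in both sorts. In LYVE1- cells Mfap4 had 38.8, 48 and 48.2 CPM in the aorta and 0.256, 0.294 and 0.398 CPM in fat. Its log2 fold change there was 7.09 (adjusted p = 6.48e-05, edgeR), but fat was near 0, so the size is not a measure. Hspa1b differed by log2 3.32 (adjusted p = 3.27e-05), Egr2 by -1.90 (adjusted p = 6e-05) and Pdk4 by -3.21 (adjusted p = 0.00154). Siglech had 125, 124 and 180.0 CPM in aorta LYVE1- and 13.7, 24 and 23.2 CPM in fat LYVE1- libraries, a larger difference than in LYVE1+ cells (interaction log2 -1.65, SE 0.28, adjusted p = 0.0466). That interaction was called in 2 of the 12 fits without 1 library (adjusted p up to 0.17), and was not called with the replicate number as a block (adjusted p = 0.055) or the prefix in the model (0.416). Aqp1 had 20.3, 33.2 and 43.9 CPM in aorta LYVE1- and 11.9, 5.3 and 7.57 CPM in fat LYVE1- libraries, all far below the 226 to 285 CPM of aorta LYVE1+ cells. The interaction for Aqp1 was log2 2.74 (SE 0.67) and was not called (adjusted p = 0.238). The values of Cx3cr1, Ccr2 and Retnla in LYVE1- cells were log2 1.31, -1.58 and -1.12, with adjusted p = 0.176, 0.0783 and 0.00905, and none of these 3 interactions was called (adjusted p = 0.303, 0.826 and 0.182).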

How the data were processed

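RNA was measured by Smart-seq2, a full-length method, from 2 ng of total RNA with paired reads of 51 cycles, per the labels' protocols. The submitters' processing notes name the build GRCm38 and the tools featureCounts 1.5.0, STAR 2.5.2b and edgeR 3.14.0, without their roles. The strand setting and the annotation release are not given in the sources used here. The authors deposited raw counts per gene, whole numbers for 46517 genes in 12 libraries, and these counts were used. Symbols and coordinates came from GENCODE M21, which matched 46005 identifiers, and promoters from RefSeq (GRCm38.p6).

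The counts of all 12 libraries were fitted together with edgeR 4.0.16 in R 4.3.3 (quasi-likelihood, 1 mean for each group, TMM scaling). The filter filterByExpr left 14216 genes, with 8 residual degrees of freedom. Tests were two-sided, and a call is a Benjamini-Hochberg adjusted p below 0.05 over all genes tested. The SE was taken as the log2 fold change over the square root of F. Marker sums use CPM on the plain library size. Libraries had 5049936 to 29792301 counts, and floors of 3 counts cover counting error only, since reads carry no molecular identifiers.

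Named genes are the 15 called genes of largest change each way (average log2 CPM of at least 4, groups without overlap), up to 4 called members of each list by adjusted p, or its 2 most abundant where none was called, and the gate genes (1 gene is not reported here); other called list members, and the leptin, adiponectin and mesothelin values, were added after their values were seen. The 42 pathway and 17 marker lists and the promoters were chosen with earlier results of these data known. Alternatives were RLE factors, DESeq2 1.42.0, other filters, a replicate block, the library prefix, leaving out libraries, and fits of fewer groups. Whether the labels' "1 sample" run on another instrument is among these libraries is not stated.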

Additional observations from a re-analysis of the deposited data

Results flagged for a closer look

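For 12 of the genes named above, the difference between aorta and fat was itself different in LYVE1+ and LYVE1- macrophages, by the interaction term of the edgeR fit (adjusted p below 0.05). The interaction is the log2 fold change of aorta against fat in LYVE1+ cells minus that in LYVE1- cells. Mitotic genes had values of 2.30 (Cdc20), 2.24 (Aurka), 2.15 (Birc5), 3.20 (Hmmr), 2.00 (Stmn1) and 1.82 (Mki67). Replication genes had 2.16 (Tk1), 1.70 (Mcm5), 1.72 (Top2a), 2.00 (Rrm2) and 1.02 (Mcm3). All 11 were higher in the aorta than in fat in LYVE1+ cells and had negative values in LYVE1- cells. Siglech was the gene with a negative interaction, -1.65: it was higher in the aorta in both sorts, with the larger difference in LYVE1- cells. Most fits that left out 1 library lost these interaction calls, whichever group the library came from. Each of the 12 genes was called in 1 to 4 of the 12 such fits, and the cause was not tested. Leaving out aorta LYVE1- library 1 or 3, or fat LYVE1- library 2 or 3, gave 0 called genes in edgeR. Those fits had 765, 778, 830 and 769 genes at an unadjusted p below 0.05, beside 862 with all libraries. Such counts include the share of 0.05 of genes expected there with no difference. There was 1 call without aorta LYVE1- library 2, and 36 without fat LYVE1- library 1. DESeq2 called 100 genes with all libraries. The edgeR fit with the library prefix as a covariate called 0 genes (651 at an unadjusted p below 0.05). Its prefix term rests on aorta LYVE1+ library 3, the only library whose prefix differs from the rest of its group.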

How the results depend on the processing

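All 426 genes called in LYVE1+ cells kept their sign in each alternative in which they were tested. Of them 126 held their call without each single LYVE1+ library. The count of 426 ranged from 172 to 443 without 1 LYVE1+ library. It was 922 with DESeq2, 820 with no filter on low counts, 181 with the library prefix as a covariate, 890 without both fat libraries numbered 1 and 243 with only the 6 LYVE1+ libraries; the cause was not tested. In fits chosen after seeing the data it was 805 with only the LYVE1+ libraries and without fat library 1, and 20 with those 6 and a replicate block. The LYVE1- count of 353 ranged from 98 to 385 without 1 LYVE1- library, and was 847 with DESeq2, 647 without the filter, 7 with the prefix and 1024 without both fat libraries numbered 1. The interaction count of 22 ranged from 0 to 47 without 1 library, and was 100, 72, 0 and 84 in those 4 fits. Libraries of equal number in aorta and fat LYVE1+ did not deviate together (correlations -0.233, 0.037 and -0.215), and those of LYVE1- did so weakly (0.262, 0.129 and 0.049). Deviations from a mean of only 3 libraries cannot show whether libraries of equal number share a preparation. With the number as a replicate block the 3 counts were 374, 320 and 12. Deviations of the LYVE1+ and LYVE1- library with the same number correlated in fat (0.574, 0.368 and 0.277), with negative values in the aorta (-0.046, -0.118 and -0.232). With each tissue and number as a replicate block, chosen after seeing the data, the interaction count was 23. Among genes not called, Ptprc (-0.0087, and -0.0614 to 0.112 without 1 LYVE1+ library) had a positive value without aorta LYVE1+ library 1 (0.0246), without fat LYVE1+ library 1 (0.112), without the filter (0.0176), with the replicate block (0.0093), without both fat libraries numbered 1 (0.113) and without erythroid and mitochondrial genes (0.00345), and Mertk (-0.095) was at -0.25 to 0.105 without 1 LYVE1+ library, with 0.105 without aorta LYVE1+ library 2. RLE factors gave 425, 343 and 21 calls. Depth was lowest in fat LYVE1+ library 1, with 5049936 counts, where 17288 genes had a count, against 16251 to 17822 in the other 5 LYVE1+ libraries.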

Other observations

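Other marker lists in the LYVE1+ libraries belong to no comparison above. Platelet markers summed to 2150, 2002 and 2044 CPM in the aorta and 1185, 1369 and 1344 CPM in fat, and none of 5 was called by edgeR (2 at an unadjusted p below 0.05, and 0 called by DESeq2). That list holds Pf4, which is also on the list of resident LYVE1+ macrophage genes, so its sum is no measure of platelets alone. Of 14 markers of T and NK cells 13 had negative values, with a median of -1.95. That median ranged from -3.13 to 1.02 in the fits without 1 LYVE1+ library. The list's sum was 355 CPM in fat library 1. Fat libraries 2 and 3, at 35.0 and 30.4 CPM, lay below the aortic libraries, at 56.0, 59.6 and 104 CPM. Among the 14 markers 1 was called higher in the aorta and 1 lower. The lower one was Klrb1c, which had no counts in the aorta and 6.53, 0.347 and 0.302 CPM in fat, and whose call ended in all 6 fits without 1 LYVE1+ library. The higher one was Cd4, which some resident macrophages also carry, at 40.3, 41.1 and 46.6 against 26.7, 20.2 and 16.7 CPM (log2 fold change 1.02, adjusted p = 0.0279, edgeR), a call that ended in 5 of the 6 fits without 1 LYVE1+ library. Crisp1, an epididymal epithelial gene, had no counts in the aorta and 0.384, 2.60 and 2.72 CPM in fat.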
